A study of Mus musculus with 8 samples.

Results

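The early growth response (Egr), Nr4a and nuclear factor of activated T cells (NFAT) factors are 3 families of transcription factors that T cells switch on or activate when the antigen receptor is engaged. Their 9 members measured here were Egr1, Egr2, Egr3, Nr4a1, Nr4a2, Nr4a3, Nfatc1, Nfatc2 and Nfatc3, of 19938 genes named on the array. A gene was read from probe sets annotated to that gene alone, and each of the 9 had 1 such probe set. Messenger RNA came from mouse CD4 T cells sorted as naive and then activated in culture through CD3 and CD28 for 24 hours, with IL6 and IL21 added and with IL-4, IFNg and TGFb blocked by antibodies. The 4 wild-type arrays are called WT and the 4 arrays from T cell-specific conditional Bcl6-/- mice KO, and cells of both groups received the same culture. The Cre driver, the deleted exons, the strain and the age of the mice are not given in the sources used here, nor is it stated that replicates are different mice. The p-values may therefore reflect only technical spread. In the comparison, loss of Bcl6, a repressor needed for follicular helper T cells, is set against its presence one day after activation.

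Engagement of the receptor opens calcium channels, and the phosphatase calcineurin then removes phosphates from NFAT proteins, which enter the nucleus and act with AP-1 on cytokine genes. The Egr genes are immediate early genes that encode zinc finger factors and respond to the Ras and ERK pathway. Egr2 and Egr3 are known for restraining T cell responses and for a role in anergy. The Nr4a genes encode orphan nuclear receptors whose induction follows the strength of receptor signalling, and Nr4a1 (Nur77) is widely used as a reporter of it. The Egr and Nr4a messenger RNAs are thus read as a partial record of antigen receptor signalling in T cells. The activation of NFAT described above is a change in the protein, which messenger RNA levels do not measure. Times before the end of the culture were not sampled, so equal messenger RNA levels do not show that signalling was equal.

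The sequences just before the starts of the Nr4a genes are shown because these 3 genes are induced together by activation while their values differed among the arrays described next. Each run is the 250 bases before the RefSeq start on GRCm38.p6, 5′ to 3′ on the gene's own strand, with every TGACG or its complement CGTCA in capitals. TGACG is the half-site of the element bound by CREB and ATF factors. The windows are chr15:101266596-101266845 on the plus strand for Nr4a1, chr2:57124004-57124253 on the minus strand for Nr4a2 and chr4:48045055-48045304 on the plus strand for Nr4a3.
Nr4a1: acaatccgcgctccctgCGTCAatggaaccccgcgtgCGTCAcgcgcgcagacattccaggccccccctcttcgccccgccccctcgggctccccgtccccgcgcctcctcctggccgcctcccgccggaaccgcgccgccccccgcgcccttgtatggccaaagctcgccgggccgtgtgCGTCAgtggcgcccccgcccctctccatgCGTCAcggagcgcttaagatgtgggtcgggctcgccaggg
Nr4a2: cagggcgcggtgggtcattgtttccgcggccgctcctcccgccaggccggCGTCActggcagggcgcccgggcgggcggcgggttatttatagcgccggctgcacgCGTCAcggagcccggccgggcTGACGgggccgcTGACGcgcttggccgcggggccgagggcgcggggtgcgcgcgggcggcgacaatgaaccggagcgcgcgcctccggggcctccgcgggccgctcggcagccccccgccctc
Nr4a3: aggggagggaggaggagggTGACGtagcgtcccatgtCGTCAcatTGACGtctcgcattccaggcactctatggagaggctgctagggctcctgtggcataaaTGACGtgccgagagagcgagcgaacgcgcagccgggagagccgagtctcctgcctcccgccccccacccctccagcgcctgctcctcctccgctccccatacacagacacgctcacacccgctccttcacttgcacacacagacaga
Each of the 3 windows held 4 half-sites, a number reached or passed in 0.137% of 32851 windows of the same length before RefSeq starts, of which 17.8% held at least 1. In Nr4a1 all 4 lay within the heptamer TGCGTCA, which 1.75% of windows hold at least once and which did not occur in the Nr4a2 or Nr4a3 window. The windows were rich in G and C (63.6% to 80.0%, against a median of 52.4% over all windows), and the half-site itself contains CG. The letters TTCCTNGAA, used here for the Bcl6 consensus and searched on both strands, were not in any of the 3 windows, and 1.31% of windows hold them. Neither the full element TGACGTCA nor the Nr4a response element AAAGGTCA was found there. Other letters were searched as well. The NFAT core GGAAA, which 55.6% of windows hold, occurred 1 time in the Nr4a2 window and not in the other Nr4a windows. The Egr site GCGTGGGCG and the CArG box CCWWWWWWGG (W for A or T) were in none of them. Of the other members read, Egr2 had at most 2 half-sites in a window, Nfatc3 at most 1 and Nfatc2 none. These matches are letters in a window, not sites shown to be bound.

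All 9 members lay above the expression filter in all 8 arrays, the filter being the 40th percentile of the array's named probe sets in at least 4 arrays. Values are log2 signals, so a difference of 1 is a doubling, and a level is not compared between probe sets of different genes. The T cell identity genes on the array were above the filter in all arrays, and so were all 7 markers of follicular helper cells, of which Bcl6 and Cd200 rose in KO and 5 did not pass. Cd200, a membrane glycoprotein, differed by 0.34 (limma adjusted p = 0.038), and the chemokine receptor gene Cxcr5 by -0.26 (0.361). Bcl6 itself was higher in the KO-labelled arrays (8.77 ± 0.123 against 9.15 ± 0.0497, SD, n = 4, limma adjusted p = 0.0303). Its probe set may lie outside the deleted part, so it does not check the labels, and directions are those of the arrays as labelled. In the comparison of all genes 157 of 11926 passed a limma adjusted p of 0.05, 77 higher and 80 lower in KO, and without KO replicate 1, whose values lay farthest from its group, the number was 782, or 6.56%. Without any one of the other 7 arrays it was between 31 and 107. Fewer cells of a type and less RNA per cell cannot be told apart in these bulk samples.

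Nfatc1 was the 1 member of 9 that passed the threshold, and it was lower in KO. In the background of all tested genes 1.32% passed in either direction, 0.671% with a lower and 0.646% with a higher value in KO. Of the other 8 members, 6 had a lower and 2 a higher mean in KO, and 2 of the 9 had an unadjusted limma p under 0.05, which held for 16.6% of all tested genes. The median difference was -0.03 over the 9 members and -0.02 over all tested genes, and the median size of difference was 0.04 and 0.07. The 95% interval of the difference lay within a 1.5-fold change in either direction for all 9.

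**Figure D1:**
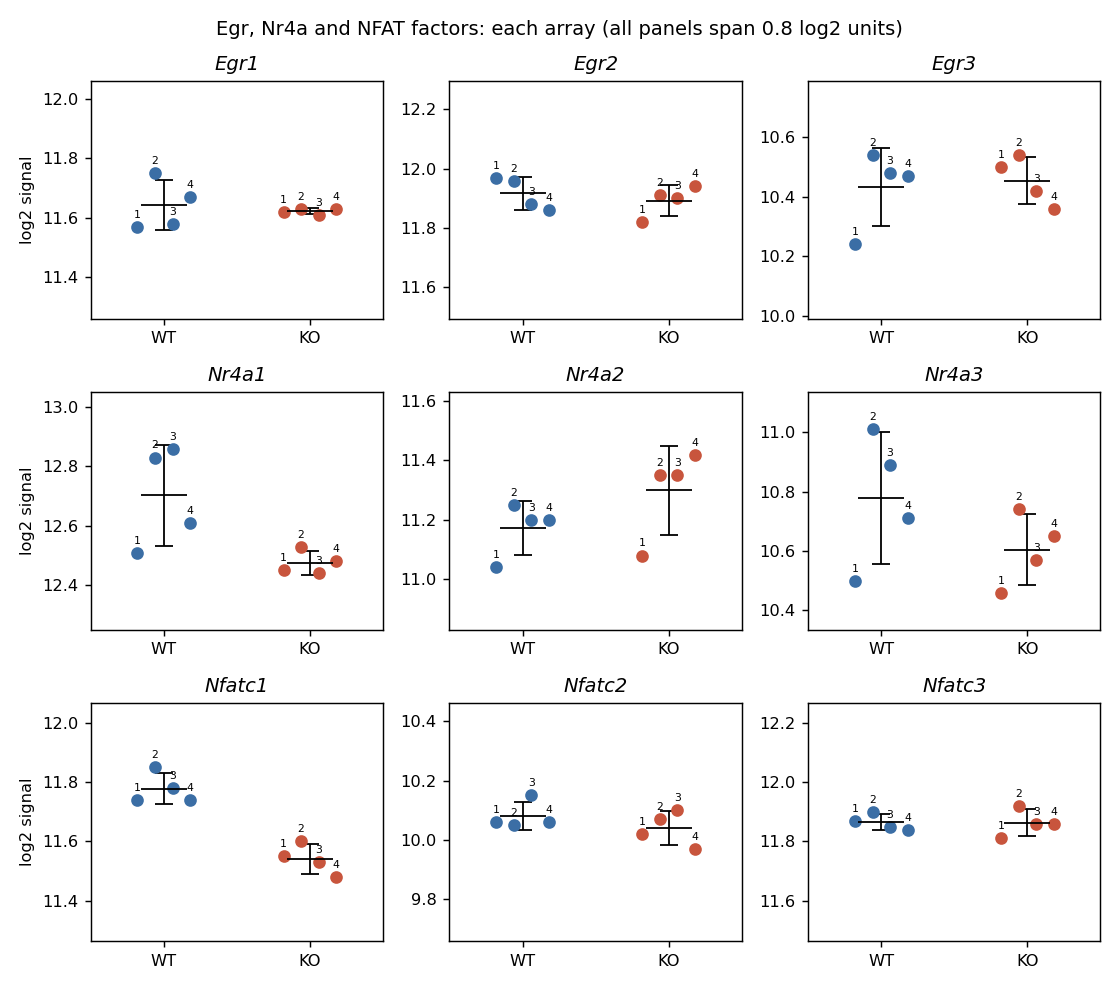
Log2 signal of each Egr, Nr4a and NFAT gene (vertical axis, every panel spanning 0.8 log2 units) in the 4 WT arrays (blue) and the 4 KO arrays (red), numbered by replicate, with the mean and SD in black. The groups separate in the Nfatc1 panel, where WT lies between 11.74 and 11.85 and KO between 11.48 and 11.60, and overlap in the other 8.

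Nfatc1 encodes the NFAT protein (NFAT2, NFATc1) whose own transcription is raised by NFAT during activation. Its log2 signal in WT replicates 1 to 4 was 11.74, 11.85, 11.78 and 11.74, and in KO replicates 1 to 4 it was 11.55, 11.60, 11.53 and 11.48. Every KO array lay below every WT array, and the gap between the nearest 2 arrays, 11.60 and 11.74, was larger than the SD of either group. The groups did not overlap in 10.8% of all tested genes, 7.66% with KO the lower and 3.1% with KO the higher. Nfatc1 fell by 0.24 on the log2 scale (SE 0.0475, 95% interval -0.34 to -0.13), a 1.18-fold lower signal with a limma adjusted p of 0.0489. The exact permutation p was 0.0286, two-sided, the smallest that 4 against 4 arrays can give. The size of this difference exceeded that of 95.1% of tested genes, and its unadjusted p ranked 136 of 11926. The adjusted p lay just under the threshold: it was 0.0213 without KO replicate 1, and between 0.0716 and 0.168 when any one of the other 7 arrays was left out, with the difference between -0.26 and -0.21 in all 8 such fits. The call was also lost with each array centred on its median (adjusted p 0.0916), with no filter (0.111), with the percentile taken over all probe sets (0.0537) and with probe sets of a gene averaged (0.0505).

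Nfatc2 and Nfatc3, the NFAT proteins already present in resting T cells, differed by less than their replicate spread. Nfatc2 was 10.06, 10.05, 10.15 and 10.06 in WT and 10.02, 10.07, 10.10 and 9.97 in KO. The groups overlapped, with a difference of -0.04 ± 0.048 (SE, limma adjusted p = 0.764; 95% interval -0.15 to 0.07). Nfatc3 was 11.87, 11.90, 11.85 and 11.84 in WT and 11.81, 11.92, 11.86 and 11.86 in KO. It varied least of the 9, with a pooled SD of 0.0369 that only 4.50% of tested genes undercut, and the difference was 0.00 ± 0.0434 (SE, limma adjusted p = 0.991). The 95% intervals for the signal in KO run from 0.933 to 1.07 times that in WT for Nfatc3 and from 0.903 to 1.05 times for Nfatc2.

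The Nr4a genes did not pass the test, and within groups they were the most variable of the members. Nr4a1 was 12.51, 12.83, 12.86 and 12.61 in WT and 12.45, 12.53, 12.44 and 12.48 in KO. WT replicates 2 and 3 were high, WT replicate 1 lay within the KO range, and the KO arrays were close together (SD 0.0404 against 0.17 in WT). The difference was -0.23 ± 0.0782 (SE, limma adjusted p = 0.184; 95% interval -0.40 to -0.05), nearly as large as that of Nfatc1 with a larger spread, and the exact permutation p was 0.0571. Nr4a3, the family member known as NOR1, was 10.50, 11.01, 10.89 and 10.71 in WT and 10.46, 10.74, 10.57 and 10.65 in KO. Again WT replicates 2 and 3 were highest and replicate 1 of each group lowest, and the groups overlapped, with a difference of -0.17 ± 0.106 (SE, limma adjusted p = 0.475; 95% interval -0.41 to 0.06).

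Nr4a2 (Nurr1), best known for its part in dopamine neurons, had a higher mean in KO. It was 11.04, 11.25, 11.20 and 11.20 in WT and 11.08, 11.35, 11.35 and 11.42 in KO, so that 3 KO arrays lay above all WT arrays while KO replicate 1 lay near the lowest WT array. The difference was 0.13 ± 0.0786 (SE, limma adjusted p = 0.478; 95% interval -0.05 to 0.30) and did not pass. Without KO replicate 1 it was 0.20, with a limma adjusted p of 0.0609, and that of Nr4a1 was -0.22 with 0.13.

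The Egr genes were nearly level between the groups. Egr1 was 11.57, 11.75, 11.58 and 11.67 in WT and 11.62, 11.63, 11.61 and 11.63 in KO, where all 4 values lay inside the WT range. The difference was -0.02 ± 0.0507 (SE, limma adjusted p = 0.908). Egr2 was 11.97, 11.96, 11.88 and 11.86 in WT and 11.82, 11.91, 11.90 and 11.94 in KO, and differed by -0.03 ± 0.0484 (SE, limma adjusted p = 0.874). The 2 groups shared most of their range, from 11.86 to 11.94. Egr3 was 10.24, 10.54, 10.48 and 10.47 in WT and 10.50, 10.54, 10.42 and 10.36 in KO, with WT replicate 1 lowest of all 8, and differed by 0.02 ± 0.0715 (SE, limma adjusted p = 0.93). The 95% intervals run from -0.13 to 0.09 for Egr1, from -0.13 to 0.08 for Egr2 and from -0.14 to 0.18 for Egr3, which is at most a 1.13-fold change in either direction for any of them.

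**Figure D2:**
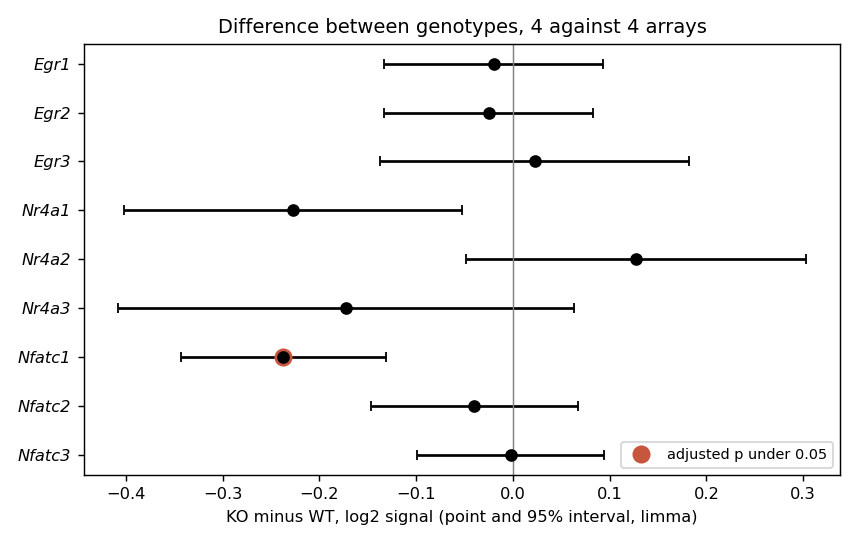
Difference in log2 signal, KO minus WT (horizontal axis), for each of the 9 genes, with the limma estimate as a point and its 95% interval as a bar. The interval of Nfatc1 runs from -0.34 to -0.13 and that of Nr4a1 from -0.40 to -0.05, while the other 7 include 0, and Nfatc1 alone passed the adjusted threshold.

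Across the 8 arrays the members of a family did not all move together. Nr4a1 and Nr4a3 had their 2 highest values in the same arrays, WT replicates 2 and 3, and followed each other with a Pearson r of 0.90 (Spearman rho 0.83) over 8 arrays that share their normalization, whereas Nr4a2 followed Nr4a1 with an r of -0.09. Nfatc1 followed Nr4a1 with an r of 0.83 and Nfatc3 with 0.23. Part of each of these values comes from the difference between the groups. Measured from the mean of its own group, WT replicate 1 was low in all 3 Nr4a genes, by 0.13 for Nr4a2, 0.19 for Nr4a1 and 0.28 for Nr4a3, and in Egr3 by 0.19, while KO replicate 1 was low in Nr4a2 by 0.22 and in Nr4a3 by 0.14.

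**Figure D3:**
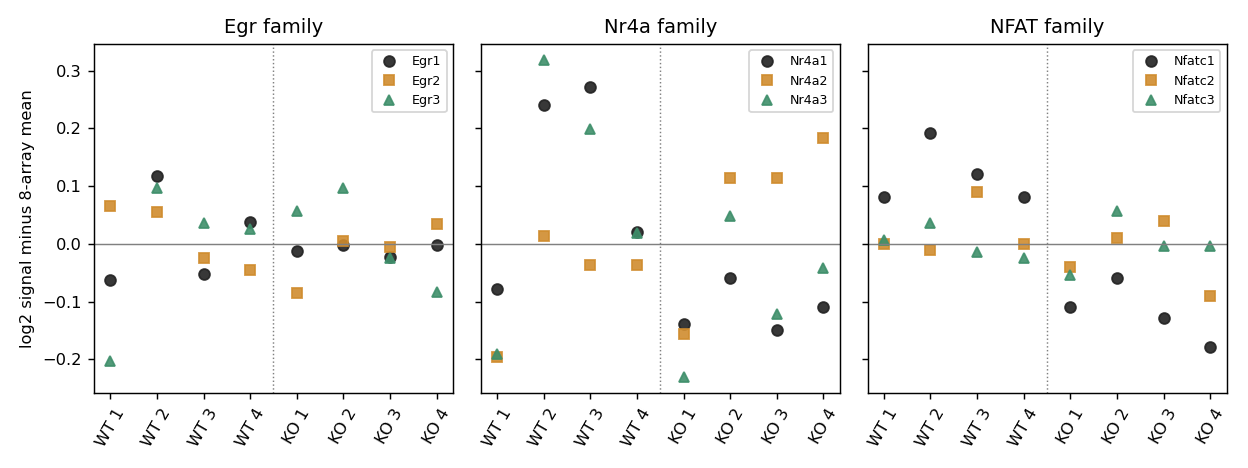
Log2 signal of each gene minus its mean over the 8 arrays (vertical axis) for the 4 WT and 4 KO arrays (horizontal axis), with 1 panel per family. Nr4a1 and Nr4a3 are highest in WT replicates 2 and 3, Nr4a2 is highest in KO replicate 4, and Nfatc1 is above 0 in all WT arrays and below 0 in all KO arrays.

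The tested genes with the pattern most like Nfatc1 over the 8 arrays were Clcf1, which encodes a cytokine of the IL-6 family (Pearson r of 0.99), the AP-1 gene Fos (0.98) and Mapk12, which encodes a p38 kinase (0.98). Fos was 8.10, 8.33, 8.16 and 8.13 in WT and 7.94, 7.95, 7.87 and 7.82 in KO, and its difference was -0.29 (limma adjusted p = 0.0539). As for Nfatc1, WT replicate 2 was highest and KO replicate 4 lowest. The 3 members that varied most over the 8 arrays were Nr4a3, Nr4a1 and Nfatc1. Those most like Nr4a1 were Itgb2, an integrin beta chain of leukocytes (r of 0.99), the T-box factor gene Eomes (0.98) and Sla2, which encodes an adaptor that dampens receptor signalling (0.98). Those most like Nr4a3 were Snx10, which encodes a sorting nexin (0.98), Sh2d2a, which encodes a T cell adaptor (0.96), and Eomes (0.95). These are the highest of 11926 values per member, all from the same 8 arrays, and serve only to order the genes.

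Eomes is also 1 of the 6 markers of cytotoxic and NK cells examined. The mean of these markers was 7.96, 8.40, 8.43 and 8.09 in WT replicates 1 to 4 and 7.92, 8.01, 8.06 and 8.04 in KO, high in the same 2 WT arrays as Nr4a1 and Nr4a3. Of the 4 that passed the filter, 3 had a lower mean in KO and none passed the test. The NK markers Ncr1 and Klrb1c were under the filter in all 8 arrays. Of 5 regulatory T cell markers 1 passed the test and 4 did not. Their mean was 9.31, 9.34, 9.61 and 9.03 in WT and 8.82, 8.75, 8.75 and 8.74 in KO, and each of the 5 had a lower mean in KO. Gpr83 fell by 0.63 (limma adjusted p = 0.00333), while the adjusted p was 0.0514 for Lrrc32, 0.0648 for Foxp3, 0.114 for Ikzf2 and 0.768 for Tnfrsf18. Ikzf2 was above the filter in 6 of 8 arrays and met it in 4 through the WT arrays. In KO it lay at 6.92, 6.99, 6.89 and 6.96, about the filter level of 6.91 to 7.15. The part of either cell type in the values of Nfatc1 and the Nr4a genes was not tested. Of 7 B cell and 9 myeloid markers on the array, 6 and 8 were under the filter in all 8 arrays. The CD8 T cell markers Cd8a and Cd8b1, in contrast, were above the filter in all 8 arrays, and neither passed the test. Cd8a was near the filter in some arrays, such as WT replicate 1 (7.05, where the filter lay at 7.02). It lay at 7.05 to 7.73 in WT and 7.06 to 7.59 in KO, and Cd8b1 at 9.44 to 9.75 and 9.35 to 9.83. Their mean was 8.295, 8.475, 8.74 and 8.325 in WT and 8.47, 8.39, 8.345 and 8.605 in KO. Whether CD8 T cells were present was not tested.

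Among relatives and cofactors, none of 7 tested genes passed. Nab1 and Nab2, corepressors that bind Egr proteins, differed by 0.11 (limma adjusted p = 0.417) and 0.02 (0.9). Egr4 differed by 0.06 (limma adjusted p = 0.839), Nfat5, the NFAT relative that answers osmotic stress, by 0.02 (0.958) and Nfatc2ip, which encodes a protein that binds NFAT, by 0.08 (0.838). Nfatc4 was above the filter in 2 of 8 arrays and was not tested across genes (6.97 ± 0.175 in WT and 6.86 ± 0.12 in KO, SD, n = 4, exact permutation p = 0.343). Rxra, a retinoid X receptor that can pair with Nr4a1 and Nr4a2, was 8.05, 8.09, 8.25 and 8.28 in WT and 8.63, 8.57, 8.41 and 8.44 in KO. All KO arrays lay above all WT arrays, yet the difference of 0.34 did not pass (limma adjusted p = 0.0514), and that of Rxrb was -0.04. Rxra passed without KO replicate 1, with 1 of the 7 higher, in a fit where 6.56% of all tested genes passed. It passed in no other fit with 1 array left out.

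Upstream of NFAT, none of 14 tested genes of calcium entry and calcineurin passed, 7 having a higher and 7 a lower mean in KO (median -0.03, against -0.02 over all tested genes). The groups did not overlap in 6 of them, 5 with KO the lower, against 10.8% and 7.66% of all tested genes. Plcg1, the phospholipase that starts the calcium signal, was 10.40, 10.45, 10.45 and 10.50 in WT and 10.06, 10.18, 10.28 and 10.21 in KO. The difference of -0.27 ± 0.0548 (SE) was just short of the threshold (limma adjusted p = 0.05004). Ppp3ca, a catalytic chain of calcineurin, had the largest positive difference, with 8.15 to 8.23 in WT and 8.38 to 8.65 in KO (limma adjusted p = 0.0591). Without KO replicate 1 both passed, with 1 of the 14 higher and 1 lower, in a fit where 6.56% of all tested genes passed. Neither passed in any other fit with 1 array left out.

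None of 14 tested genes that restrain NFAT or carry it out of the nucleus passed (4 higher, 8 lower, 2 with equal means, median -0.01). Cabin1, an inhibitor of calcineurin, had the smallest p (-0.20, limma adjusted p = 0.103), the kinase gene Dyrk2 the most negative difference (-0.23, 0.147) and Fkbp1a, which encodes the FK506 binding protein, the most positive (0.05, 0.614). Rcan1, a calcineurin inhibitor that is itself an NFAT target, differed by -0.04 (0.79). Without KO replicate 1, where 6.56% of all tested genes passed, the count was 0 as well. At an unadjusted limma p under 0.05 it was 2 in this list, 5 in the calcium list and 1 among relatives and cofactors, against 16.6% of all tested genes.

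On the Ras, ERK and serum response factor path, 1 of 14 tested genes passed, and 10 of 14 had a lower mean in KO (median -0.03). Elk3, an ETS factor that joins serum response factor at immediate early promoters, was 10.74, 10.65, 10.55 and 10.54 in WT and 10.27, 10.29, 10.26 and 10.36 in KO. All KO arrays were lower, and Elk3 fell by 0.33 on the log2 scale (SE 0.0559, limma adjusted p = 0.0303). The call for Elk3 was kept in 3 of the 8 fits with 1 array left out, those without KO replicate 1, KO replicate 4 or WT replicate 4, and lost with no filter. The most positive difference was that of the GTPase gene Nras (0.08, limma adjusted p = 0.623). An unadjusted limma p under 0.05 held for 3 of the 14, against 16.6% of all tested genes.

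The other immediate early and early activation genes numbered 24, of which 1 rose and 23 did not pass, while 16 had a lower mean in KO (median -0.10, against -0.02 over all tested genes). The groups did not overlap in 12 of the 24, with KO lower in 9 and higher in 3, where the shares of all tested genes were 10.8%, 7.66% and 3.1%. An unadjusted limma p under 0.05 held for 11 of the 24, against 16.6% of all tested genes. Atf3, a stress-induced member of the ATF family, was 7.48, 7.68, 8.02 and 7.80 in WT and 8.46, 8.61, 8.42 and 8.58 in KO. Atf3 rose 1.71-fold (0.77 ± 0.103 on the log2 scale, SE, limma adjusted p = 0.0099), and it passed in all 8 fits with 1 array left out. Nfkbid, a nuclear inhibitor of the NF-kappa-B family, had the most negative difference (-0.31, limma adjusted p = 0.147). Without KO replicate 1, where 6.56% of all tested genes passed, 1 was higher and 1, Fos, lower. Fos passed in no other fit with 1 array left out. Of 6 T cell activation markers examined, none passed, and 5 had a higher mean in KO and 1 a lower one (median 0.05). They were Cd69, Il2ra, Cd44, Tnfrsf4, Tnfrsf9 and Tfrc, of which Cd69 is also in the list above. The groups did not overlap in 2, both with KO the higher, against 10.8% and 3.1% of all tested genes.

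Of 10 tested cytokine and receptor genes with known NFAT sites, 1 rose and 9 did not pass, with a median difference of 0.11. An unadjusted limma p under 0.05 held for 6 of the 10, and the groups did not overlap in 4, 3 with KO the higher. The shares of all tested genes were 16.6%, 10.8% and 3.1%. Il3, which met the filter through the KO arrays, is in each of these counts. Il3, a cytokine acting on blood progenitors, was 6.69, 7.16, 7.26 and 6.72 in WT and 7.66, 8.18, 7.95 and 8.41 in KO, with 2 WT arrays under the filter, which lay at 6.96 to 7.06 in WT. Il3 rose (limma adjusted p = 0.0227), but no fold is given, since WT lay about the filter level and the gene met the filter in 4 arrays through the KO arrays. Il2, the growth factor gene on which NFAT was first defined, went the other way, with 11.15 ± 0.157 in WT and 10.73 ± 0.18 in KO (SD, n = 4). Its difference of -0.42 did not pass (limma adjusted p = 0.0782) and KO replicate 2 (10.99) lay above WT replicate 4 (10.92). Il3 passed in 3 of the 8 fits with 1 array left out, those without KO replicate 1, KO replicate 4 or WT replicate 3. With the filter at the 50th percentile 8 genes of this list were tested, and Il3 was not among them.

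Of 12 tested anergy genes linked to Egr2, Egr3 and NFAT, 1 rose, 1 fell and 10 did not pass, and 9 had a lower mean in KO (median -0.13). An unadjusted limma p under 0.05 held for 4 of the 12, and the groups did not overlap in 5, 4 with KO the lower. The shares of all tested genes were 16.6%, 10.8% and 7.66%. Nrn1, which encodes neuritin, a target of Egr2, was 10.42, 9.91, 10.25 and 10.18 in WT and 10.88, 11.15, 11.19 and 11.05 in KO, and rose 1.84-fold (limma adjusted p = 0.00667). It passed in all 8 fits with 1 array left out. Dgkz, a diacylglycerol kinase that damps Ras signalling, was 10.39, 10.38, 10.33 and 10.35 in WT and 10.16, 10.15, 10.09 and 10.12 in KO. All KO arrays were lower, and Dgkz fell by 0.23 (SE 0.0417, limma adjusted p = 0.0365), a call kept in 1 of the 8 fits, that without KO replicate 1, and lost with median centring, no filter, averaged probe sets or quantile normalization. Nt5e, which encodes the ectonucleotidase CD73, had the most negative difference (-0.32, limma adjusted p = 0.0838). Without KO replicate 1, where 6.56% of all tested genes passed, the calls were 1 higher and 2 lower, the second being Lag3. Lag3 passed in no other fit with 1 array left out.

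**Figure D4:**
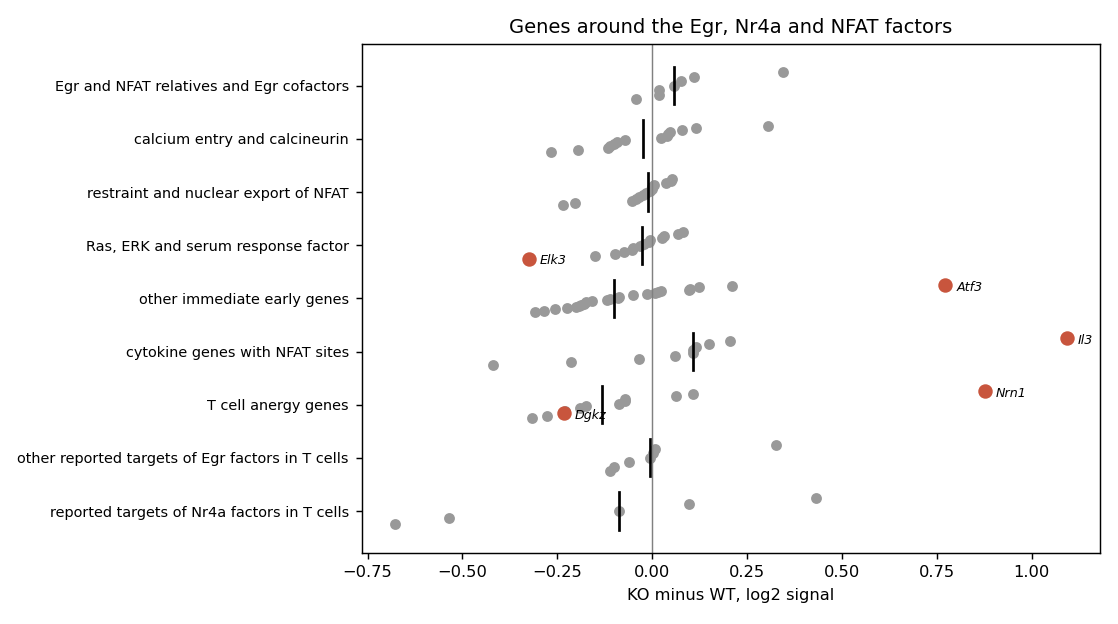
Difference in log2 signal, KO minus WT (horizontal axis), of every tested gene in 9 lists of related genes (rows), with the list median as a black bar and genes past the adjusted threshold in red and named. Il3, Nrn1 and Atf3 lie to the right, Elk3 and Dgkz to the left, and the medians run from -0.13 to 0.11.

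Other genes reported as targets of Egr factors in T cells did not pass in any of 7 cases (median -0.01, 1 at an unadjusted limma p under 0.05). Bhlhe40, a repressor of the helix-loop-helix class, had the smallest p (0.33, limma adjusted p = 0.161), and Socs3, a feedback inhibitor of cytokine signalling, the most negative difference (-0.11, 0.637). Of 5 reported Nr4a targets none passed. Foxp3, Ikzf2 and Gata3 had an unadjusted limma p under 0.05, which held for 16.6% of all tested genes. In each of them the groups did not overlap, which held for 10.8% of all tested genes. Ikzf2 met the filter in 4 arrays through the WT arrays, where it was higher, so these counts are not read as a result. Foxp3, the regulatory T cell factor, was 8.29 ± 0.364 in WT and 7.62 ± 0.105 in KO (SD, n = 4), a difference of -0.68 (limma adjusted p = 0.0648), and the Th2 regulator gene Gata3 differed by 0.43 (0.118). Foxp3 and Ikzf2 are also among the regulatory T cell markers given above. Foxp3 passed without KO replicate 1 and without WT replicate 4, fits in which 782 and 107 of 11926 tested genes passed.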

How the data were processed

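The authors deposited 1 log2 signal per probe set and array for 35556 probe sets, with 2 decimals. RMA and Partek are named per the submitters' processing notes, while their versions, the build and the annotation are not given in the sources used here. Per the labels' protocols 100 ng of total RNA was labelled with biotin. RMA brings arrays to nearly equal distributions, which hides a shift shared by all genes. The number of arrays limits the precision.

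Of the probe sets, 21789 had 1 gene symbol, 1621 several and 12146 were not listed and are unnamed here. Each gene was read from its probe set of highest mean. KO was compared with WT by limma 3.58.1 in R 4.3.3 (no block, two-sided, Benjamini-Hochberg adjustment over 11926 genes), and single genes also by an exact permutation test. The members and lists were chosen with earlier results of these data known. The text names all 9 members, 6 relatives and, in each list, genes past the threshold or else the smallest p, and the largest rise and fall, besides the 3 genes most like Nfatc1 and each of the most variable members by Pearson r. Rcan1, Cxcr5, Cd200, Gpr83, Lag3 and the marker genes were named after their values were seen. Tested on simulated data for this comparison (20 simulations of 11926 genes, 200 changed), limma recovered 33% of genes changed by 0.25, 84.2% by 0.5 and 98.4% by 1 on the log2 scale, and 5.01% of calls were false. Each simulated gene varied independently with its own SD, so deviations shared by the genes of an array were not included. Windows before starts came from a RefSeq table (GRCm38.p6) and were read for 6 of the 9 members. Those of Egr1, Egr3 and Nfatc1 were not read, so no statement on motifs covers them. The same-numbered WT and KO arrays did not deviate together in 2 of 4 pairs, so the numbers were not taken as pairs. Genes of the lists without a probe set of their own are not analysed here. Alternatives are given in the closing section.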

Additional observations from a re-analysis of the deposited data

Results flagged for a closer look

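In the WT arrays, Nfatc2 in replicate 3 stood apart at 10.15, while the other 3 lay at 10.05 to 10.06. Of 18 groups of 4 values examined for the 9 members this was the only one in which 1 array lay so far from the rest, and chance alone gives about 0.9.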

How the results depend on the processing

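The number of members past the threshold was 1 over the 8 arrays. It was 0 with array median centring, with no filter, with the filter percentile taken over all probe sets (chosen after seeing the data), with the mean over probe sets and with the replicate block, 2 with array weights (Nfatc1 and Nr4a1), and 0 to 1 over the fits with 1 array left out. The difference of Nfatc1 was -0.23 with median centring and -0.24 in the other 4 settings that lost its call, among them the replicate block, and -0.26 to -0.21 with 1 array left out. It kept its direction in all alternatives run. The limma adjusted p of Nfatc1 stayed under 0.05 with the filter at the 50th percentile (0.0329) and with quantile normalization once more (0.0341). It also did so with an intensity trend and robust prior (0.0123) and with array weights (0.00334). Signs turned for Egr1 (0.0158 without WT replicate 2, the range with 1 array left out being -0.0442 to 0.0158), Egr3 (-0.0232 with array weights, and -0.0417 to 0.0583 with 1 array left out) and Nfatc3 (0.0075 with median centring, and -0.0217 to 0.015 with 1 array left out), none of which passed in any setting, and the cause was not tested. Over all genes the count of 157 was 468 at a threshold of 0.1, 78 with median centring (48 higher, 30 lower), 1980 with array weights, 354 with an intensity trend and robust prior, 58 with no filter, 322 with quantile normalization once more (173 higher, 149 lower), 36 with the replicate block, and 31 to 782 with 1 array left out (31 without WT replicate 2, 782 without KO replicate 1). For the 106 related genes tested the count of 5 was 14 at a threshold of 0.1, 34 with array weights, 9 with the filter at the 50th percentile, 12 with the trend and robust prior, 3 with no filter, 8 with quantile normalization once more, 1 with the replicate block (Atf3, so that Nrn1, Il3, Elk3 and Dgkz were not called there), and 2 to 11 with 1 array left out. Plcg1 and Ppp3ca were called with array weights, the filter at the 50th percentile, the trend and robust prior, and quantile normalization once more. Rxra and Lag3 were called in these except the quantile normalization, Fos in these except the trend, and Foxp3 with the weights and the trend. None of these genes was called with median centring, no filter, averaged probe sets or the replicate block. Correlations of deviations between same-numbered arrays ran from -0.17 to 0.31 and those of other WT and KO arrays from -0.42 to 0.46, so the replicate block rests on a number alone. In the simulations 33% of changes of 0.25 were recovered over genes picked at random, so small changes of the members can go undetected with 4 arrays a group. The share for a single member was not simulated and depends on its spread. Of all tested genes 4.50% had a smaller pooled SD than Nfatc3 and 90.9% a smaller one than Nr4a3.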

Other observations

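Within each array, the log2 signal of Nr4a1 minus that of Nr4a2 was 1.47, 1.58, 1.66 and 1.41 in WT replicates 1 to 4 and 1.37, 1.18, 1.09 and 1.06 in KO. The KO arrays lay below the WT arrays in all cases, with a change of -0.35 between the group means, although neither gene passed alone. Nr4a2 minus Nr4a3 likewise separated the groups, at 0.24 to 0.54 in WT and 0.61 to 0.78 in KO. Such a difference shows unequal change of the probe sets and not which of them changed. Of the 36 pairs of members, 10 separated the groups in this way, 6 of them with Nfatc1 and 4 without. Those 4 also include Egr1 with Nr4a1 and Egr3 with Nr4a1, so they are not confined to the Nr4a family. The share among pairs of all tested genes was not computed, so the count has no background. The pairs shown were chosen after their values were seen and were not tested.

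Clcf1, the gene most like Nfatc1 over the arrays, was itself past the threshold: it lay at 9.31, 9.58, 9.48 and 9.35 in WT and between 8.93 and 9.06 in KO, and fell by 0.44 on the log2 scale (limma adjusted p = 0.0181). It was picked for its likeness to Nfatc1, so its difference restates that choice.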
